A study of Arabidopsis thaliana with 22 samples.

Results

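Chlorophyll synthesis and breakdown were followed through 40 genes of Arabidopsis thaliana, chosen by their locus identifiers from the 25680 loci of the deposited table. Of these, 31 encode steps of synthesis: 5 act in or on the formation of 5-aminolevulinate (ALA), 8 in the porphyrin steps, 14 in the magnesium branch and 4 in the heme and bilin branch. The other 9 act in breakdown. RNA came from mature leaves of the wild type and of 4 T-DNA insertion lines of photorespiration, the salvage of the phosphoglycolate that forms when Rubisco fixes oxygen. The lines are hpr1-1 (peroxisomal hydroxypyruvate reductase), shm1-2 (mitochondrial serine hydroxymethyltransferase), glyk1-1 (glycerate kinase) and pglp1-1 (phosphoglycolate phosphatase), 1 allele of each. All plants grew to growth stage 5.1 in air with 1% CO2 (HC) on days of 10 h and nights of 14 h, and were sampled in HC, or 8 h into the light after a night's end at which CO2 was lowered to 0.038% (LC). No hour of sampling is given for the HC libraries, so in LC against HC time of day and CO2 cannot be told apart. The wild type has 3 libraries and each mutant 2 libraries at each CO2 level, 22 in all.

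Plants make chlorophyll from glutamate. Glutamyl-tRNA reductase and an aminotransferase form ALA, whose molecules are joined and oxidised in the porphyrin steps to protoporphyrin IX. Magnesium chelatase directs that compound to chlorophyll, and ferrochelatase directs it to heme and to the bilin chromophore of phytochrome. Free intermediates of the pathway transfer light energy to oxygen, and in leaves their formation is held in balance with the apoproteins that bind chlorophyll. Breakdown converts chlorophyll b to chlorophyll a, removes magnesium and phytol, and opens the ring, and it is known best from leaf senescence.

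The ALA genes are HEMA1 (AT1G58290), HEMA2 (AT1G09940), GSA1 (AT5G63570), GSA2 (AT3G48730) and FLU (AT3G14110). The porphyrin steps are encoded by HEMB1 (AT1G69740), HEMC (AT5G08280), HEMD (AT2G26540), HEME1 (AT3G14930), HEME2 (AT2G40490), HEMF1 (AT1G03475), PPOX1 (AT4G01690) and PPOX2 (AT5G14220). The magnesium branch holds CHLD (AT1G08520), CHLH (AT5G13630), CHLI1 (AT4G18480), CHLI2 (AT5G45930), GUN4 (AT3G59400), CHLM (AT4G25080), CRD1 (AT3G56940), DVR (AT5G18660), PORA (AT5G54190), PORB (AT4G27440), PORC (AT1G03630), CHLG (AT3G51820), CAO (AT1G44446) and CHLP (AT1G74470). In the heme and bilin branch are FC1 (AT5G26030), FC2 (AT2G30390), HO1 (AT2G26670) and HY2 (AT3G09150). Genes of breakdown are NYC1 (AT4G13250), NOL (AT5G04900), SGR1 (AT4G22920), SGR2 (AT4G11910), PPH (AT5G13800), PAO (AT3G44880), RCCR (AT4G37000), HCAR (AT1G04620) and CLH1 (AT1G19670).

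Levels are in CPM, counts per 1000000 counts of a library after TMM scaling, and fold changes are log2 values from edgeR's quasi-likelihood test with Benjamini-Hochberg adjustment over 20433 tested loci. All 40 genes passed the filter on low counts, and a gene is called where the adjusted p is under 0.05. Library totals ran from 5911382 to 194460991 counts. HPR1, SHM1, GLYK and PGLP1, with its copy AT5G36790, were each below all wild-type libraries in their own mutant, in HC and in LC. In wild-type LC replicate 3 the counts of 4919 rows stand on the wrong loci. They were treated as missing, so GSA2, FLU, HEME1, GUN4, CRD1, CHLG, HY2 and PAO have 2 wild-type LC libraries. Wild-type LC replicate 1 stood apart: it was the lowest wild-type LC library for 29 of the 31 synthesis genes and the highest for 5 of the 9 breakdown genes.

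Summed CPM of 4 mesophyll markers (RBCS1A, RBCS3B, LHCB5 and PSAL) was 7411, 26240 and 32270 in wild-type LC and 3523 and 2126 in shm1 LC. The same sum was 17250 and 15010 in glyk1 LC and 30700 and 24510 in pglp1 LC, inside the wild-type range. All 4 were called lower in shm1 and none in glyk1. In pglp1 PSAL was called lower (−1.07, SE 0.42, adjusted p = 0.0372), and RBCS1A, RBCS3B and LHCB5 were not called. PSAL stood at 1728 and 1586 CPM in pglp1 LC and 1691, 3368 and 5365 in wild-type LC. The 4 epidermis markers summed to 303 to 438 CPM in wild-type LC, 80.5 and 88.7 in shm1 LC, 205 and 228 in glyk1 LC, and 169 and 185 in pglp1 LC. Of these, ATML1 lay inside the wild-type LC range of 17.9 to 45.7 in pglp1 LC (38.5 and 35.7 CPM) and glyk1 LC (21.35 and 22.33). It was called lower in shm1 only. PDF1, at most 2.99 CPM in wild-type LC, was called in none of these mutants. FDH and CUT1 were called lower in shm1, glyk1 and pglp1. Guard cell markers, also 4, summed to 45.5 and 91.8 CPM in wild-type LC replicates 1 and 2, 85.6 and 94.2 in shm1 LC, 145.7 and 126 in glyk1 LC, and 119.6 and 94.9 in pglp1 LC. Among them FAMA was called higher in shm1, glyk1 and pglp1, and KAT1 higher in shm1 but lower in pglp1. MYB60 and GC1 were called in none of these mutants. The phloem markers SUC2 and APL summed to 170.3, 204 and 296 CPM in wild-type LC, 328 and 352 in shm1 LC, 242 and 181 in glyk1 LC, and 164 and 173.5 in pglp1 LC. APL was called higher in shm1, glyk1 and pglp1. SUC2 was called in none of them, with log2 fold changes of 0.60, −0.16 and −0.60. Root markers summed to 26.4 CPM in wild-type LC replicate 1 and to at most 6.35 in the other libraries with a sum. Flower markers summed to at most 2.18 CPM in any library. Of the senescence markers, SAG12 was at most 0.0518 CPM everywhere. SAG13 stood at 44.0, 2.48 and 1.96 CPM in wild-type LC, 2370 and 2891 in shm1 LC, 215 and 326 in glyk1 LC, and 296 and 656 in pglp1 LC. The part of these markers in the results below was not tested. Leaves are bulk samples, in which fewer cells of a type and less RNA per cell cannot be told apart.

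Upstream sequence is shown for 5 genes on which the results turn. HEMA1 and HEMA2 encode the same step, CHLH and PORB were called in opposite directions in pglp1, and FC1 rose in 3 mutants. Each run lies before the annotated gene start in RefSeq's TAIR10.1, up to 250 bases and shortened where another gene begins, and reads 5′ to 3′ on the strand of the gene. Capitals mark any of 4 motifs searched on both strands, which are the G-box CACGTG, the motif spelled CCAATC, the motif spelled AGATTCT and the motif spelled GATAAG.
HEMA1 (chr1:21626403-21626652, minus strand): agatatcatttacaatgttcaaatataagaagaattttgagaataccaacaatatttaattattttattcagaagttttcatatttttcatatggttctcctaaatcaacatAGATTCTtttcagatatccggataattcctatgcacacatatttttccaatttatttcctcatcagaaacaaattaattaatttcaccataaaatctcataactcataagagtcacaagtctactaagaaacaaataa
HEMA2 (chr1:3239555-3239804, minus strand): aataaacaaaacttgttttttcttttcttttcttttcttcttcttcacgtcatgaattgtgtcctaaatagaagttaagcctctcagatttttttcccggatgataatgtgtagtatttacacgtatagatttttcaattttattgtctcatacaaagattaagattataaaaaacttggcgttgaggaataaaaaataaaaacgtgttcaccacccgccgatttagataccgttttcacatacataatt
CHLH (chr5:4392430-4392679, minus strand): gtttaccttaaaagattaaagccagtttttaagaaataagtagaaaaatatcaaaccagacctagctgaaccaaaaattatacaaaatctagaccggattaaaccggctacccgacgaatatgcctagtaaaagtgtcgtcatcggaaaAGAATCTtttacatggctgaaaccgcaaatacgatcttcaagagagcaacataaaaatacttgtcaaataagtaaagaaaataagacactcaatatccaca
PORB (chr4:13725360-13725545, plus strand): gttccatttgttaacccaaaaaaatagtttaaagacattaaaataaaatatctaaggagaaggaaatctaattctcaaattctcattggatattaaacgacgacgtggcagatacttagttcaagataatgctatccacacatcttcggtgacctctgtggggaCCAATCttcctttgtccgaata
FC1 (chr5:9096201-9096450, plus strand): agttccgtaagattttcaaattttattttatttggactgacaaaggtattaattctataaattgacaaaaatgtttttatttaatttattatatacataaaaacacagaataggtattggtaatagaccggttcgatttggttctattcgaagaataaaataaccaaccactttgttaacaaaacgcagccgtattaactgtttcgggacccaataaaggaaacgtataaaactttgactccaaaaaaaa
HEMA1 and CHLH each hold AGATTCT, in CHLH on the opposite strand, and PORB holds CCAATC. HEMA2 and FC1 hold none of these motifs. For counts, motifs were searched in the full 250 bases before each gene start, neighbouring genes included. Over all 40 genes AGATTCT was in 4 of these longer windows (10.0%, against 6.22% of 27443 protein-coding genes), CCAATC in 3 (7.5% against 10.2%), the G-box in 7 (17.5% against 6.49%) and GATAAG in 3 (7.5% against 12.3%). The G-box occurred in HEMD, CRD1, CAO, FC2, HY2, NOL and SGR2. In HEMA2, FC1 and SGR1, which rose in shm1, glyk1 and pglp1, each motif had 0 matches.

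In HC the pathway was led by PORB, which makes chlorophyllide in the light, at 1422 ± 532 RPKM in the wild type (SD, n = 3), a scale per gene length on which genes can be compared. CRD1, a subunit of the ring cyclase, followed at 1021 ± 300 RPKM, and CHLP, which reduces the phytol chain, at 968 ± 284 RPKM. The lowest of the 40 were SGR1 at 7.84 ± 2.53 RPKM and SGR2 at 2.35 ± 2.96 RPKM, both stay-green proteins of breakdown. The neighbours at the top differed by less than their spread. No gene of the pathway was called between any mutant and the wild type in HC. For hpr1, shm1, glyk1 and pglp1 the calls over all loci were 0.00489%, 0.0147%, 0.00489% and 4.11%, and 1, 0, 1 and 5 of the 40 genes had an unadjusted p under 0.05. DESeq2 called 0, 0, 0 and 2 genes, the 2 being NOL and CLH1 in pglp1.

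In the wild type 0 of 40 genes were called between LC and HC, where 0.0196% of all loci were. SGR1 (0.68, SE 0.26, adjusted p = 0.435) and CLH1 (−1.08, SE 0.50, adjusted p = 0.555) had an unadjusted p under 0.05, 2 of 40, and DESeq2 called 0. The median log2 fold change of the 40 genes was −0.19, against −0.01 over all loci.

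In hpr1, 3 genes of breakdown were higher and 5 of synthesis lower in LC than in HC. Over all loci 8.34% were higher and 6.9% lower. SGR1, the magnesium dechelatase, stood at 7.54 and 8.67 CPM in HC and 32.5 and 29.8 in LC, a rise of 1.94 (SE 0.33, adjusted p = 0.00405). PPH, which removes phytol from pheophytin, rose by 1.49 (SE 0.39, adjusted p = 0.0228). NYC1, a chlorophyll b reductase, rose by 1.02 (SE 0.31, adjusted p = 0.0377). GSA1, HEMC, HEMF1, PPOX1 and CHLG fell by 0.96 to 1.51 on the log2 scale. Leaving out any 1 of the 4 hpr1 libraries left 0 to 2 calls: 0 without HC replicate 1, 1 without HC replicate 2, and 2 without either LC replicate. Against the wild type in LC, hpr1 had 0 called genes of 40, with 2.82% of all loci called, 6 genes at an unadjusted p under 0.05, and 1 called by DESeq2. That gene was FC1, at 122 and 73.6 CPM against 61.8, 39.4 and 38.5 in the wild type (1.06, SE 0.28, adjusted p = 0.0522). The response to LC in hpr1 differed from that of the wild type for 0 genes (0.093% of all loci, 6 genes at an unadjusted p under 0.05, DESeq2 0).

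In LC, 25 of the 31 synthesis genes were lower than in the wild type in shm1, 20 in glyk1 and 14 in pglp1, and HEMA2, FC1 and SGR1 were higher in each. Against the wild type in LC, shm1 had 6 genes higher and 27 lower, where 31.3% of all loci were higher and 35.1% lower. In glyk1 5 were higher and 21 lower, against 27% and 29.1%, and in pglp1 6 were higher and 18 lower, against 26.1% and 34.5%. Called either way in pglp1 were 24 of 40, where 60.6% of all loci were. The share of lower genes was above that of all loci in each mutant, and the share of higher genes below it. Medians of the 40 genes were −2.05 in shm1, −1.01 in glyk1 and −0.78 in pglp1, and medians over all loci were −0.12, −0.13 and −0.29. These comparisons share the wild-type LC libraries. Scaling with DESeq2's size factors moved the median of all loci in pglp1 by 0.20, and by at most 0.08 in the other 2. Without glyk1 LC replicate 1 the calls in glyk1 were 16.

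**Figure D1:**
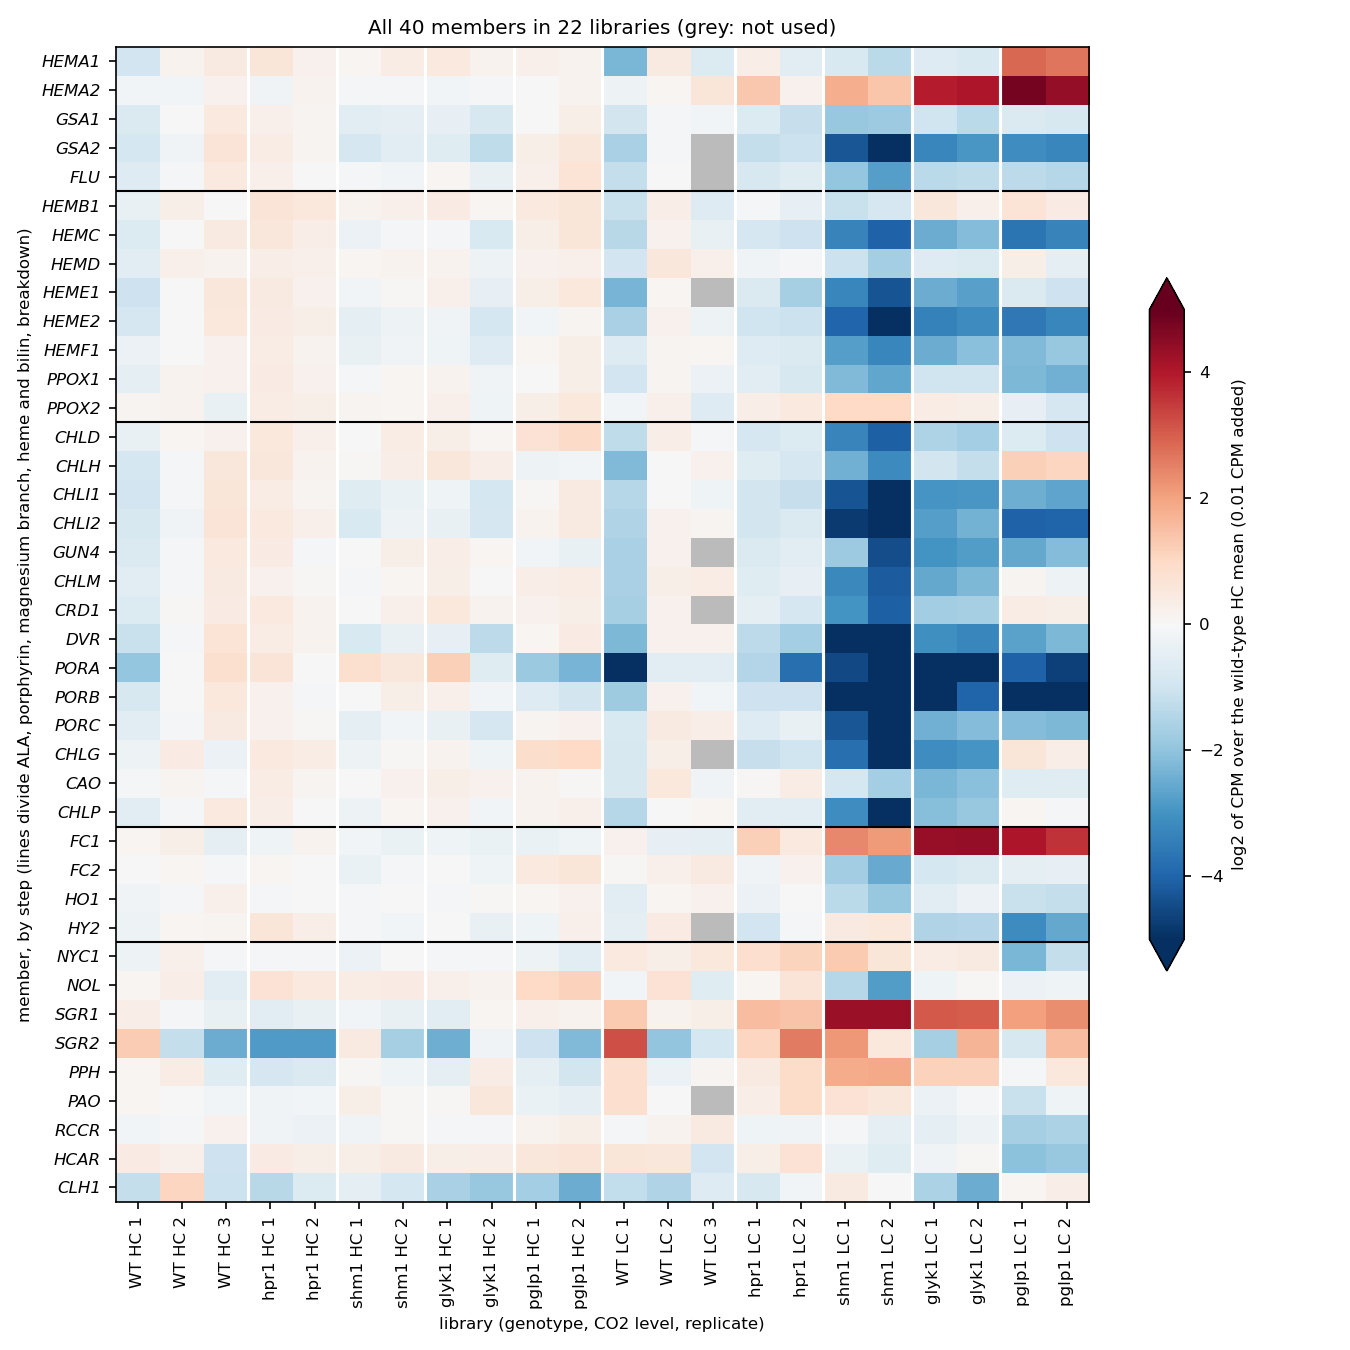
Levels of the 40 genes (rows, in the order of the pathway) in the 22 libraries (columns, replicates within genotype and CO2 level), as log2 of CPM over the mean of the 3 wild-type HC libraries, with 0.01 CPM added. HC columns are mostly pale, with exceptions that include SGR2 in hpr1 and PORA and CLH1 in pglp1, and the shm1, glyk1 and pglp1 LC columns are blue for most synthesis genes and red for HEMA2, FC1 and SGR1. Wild-type LC replicate 1 is bluer than its 2 partners. Grey cells are the 8 values treated as missing.

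Set against each mutant's own HC libraries, the 3 comparisons share no library. LC against HC gave 6 higher and 27 lower in shm1 (all loci 31.9% and 33.5%), 4 and 22 in glyk1 (27.1% and 27.5%) and 5 and 22 in pglp1 (24.3% and 32.3%). GSA2, FLU, HEMC, HEME2, HEMF1, PPOX1, CHLD, CHLI1, CHLI2, GUN4, DVR, PORB and FC2, 13 of the 40, were lower in all 3, as were 14.6% of all loci. HEMA2, FC1 and SGR1 were higher in all 3, as were 15% of all loci. The genes HEME1, CHLH, CHLM, CRD1, PORA, CHLG, CAO and CHLP, 8 in number, were lower in shm1 and glyk1 and not called in pglp1, and 7 of them belong to the magnesium branch. PPOX2 and NYC1 were higher in shm1 and lower in pglp1, and SGR2 and PAO were called in none. For these patterns that differ between mutants the share of all loci was not counted.

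The response to LC differed from that of the wild type for 31 genes in shm1, 6 higher and 25 lower (all loci 25.6% and 28.3%). It differed for 3 higher and 12 lower in glyk1 (20% and 19.3%) and for 5 higher and 19 lower in pglp1 (18.4% and 25.1%). The glyk1 total of 15 became 8 without glyk1 HC replicate 1 and 9 without glyk1 LC replicate 1, and it was 26 when wild-type LC replicate 1 was left out.

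The first step, ALA formation, split between its genes. HEMA1, the glutamyl-tRNA reductase of green tissue, stood at 53.6, 357 and 162 CPM in wild-type LC, 153 and 102 in shm1, 166 and 151 in glyk1 and 1886 and 1653 in pglp1 LC, and between 135 and 395 CPM in the 11 HC libraries. Both pglp1 LC libraries were above every other library of the series, and those of shm1 and glyk1 lay inside the wild-type LC range. The log2 fold change against the wild type was 3.21 (SE 0.56, adjusted p = 0.000139) in pglp1, −0.57 (SE 0.55, adjusted p = 0.37) in shm1 and −0.26 (SE 0.55, adjusted p = 0.7) in glyk1. Within pglp1 the rise from HC was 2.55 (SE 0.63, adjusted p = 0.00291).

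HEMA2, the second glutamyl-tRNA reductase gene, rose in all 3 mutants. Its level lay between 14.2 and 19.0 CPM in HC and was 13.5, 17.2 and 25.0 in wild-type LC, 41.5 and 18.8 in hpr1, 57.1 and 42.1 in shm1, 246 and 270.5 in glyk1 and 446 and 341 in pglp1 LC. The last 3 groups did not overlap with each other or with the wild type. Log2 fold changes were 1.42 (SE 0.29, adjusted p = 0.00055), 3.80 (SE 0.31, adjusted p = 1.67e-07) and 4.41 (SE 0.32, adjusted p = 3.42e-08). The rise was larger in glyk1 than in shm1 by 2.38 (SE 0.34, adjusted p = 0.000103), and pglp1 and glyk1 differed by 0.61 (SE 0.32, adjusted p = 0.142).

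GSA1 and GSA2 encode the aminotransferase that follows. GSA2 fell to 12.1 and 3.99 CPM in shm1, 24.2 and 30.9 in glyk1 and 26.9 and 24.2 in pglp1 LC, all below the 2 wild-type LC libraries at 75.3 and 226. GSA1 fell less, by 1.53 (SE 0.33, adjusted p = 0.000715) in shm1 and 0.84 (SE 0.32, adjusted p = 0.0333) in glyk1, and its value in pglp1 was −0.44 (SE 0.31, adjusted p = 0.237). The glyk1 call of GSA1 was lost without wild-type LC replicate 2 (adjusted p = 0.104) or 3 (0.122) and without glyk1 LC replicate 1 (0.0732) or 2 (0.195). FLU, which holds back glutamyl-tRNA reductase in the dark, stood at 32.8 and 75.7 CPM in wild-type LC. Its level was 19.6 and 11.2 in shm1 LC (−1.81, SE 0.39, adjusted p = 0.000965, and 0.0548 with only 2 groups fitted). In glyk1 it was at 29.6 and 31.0 and in pglp1 at 30.7 and 28.1, below both wild-type libraries, with adjusted p = 0.077 and 0.063.

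Of the 8 genes of the porphyrin steps, 6 fell and 1 rose in shm1, and 4 fell and 1 rose in each of glyk1 and pglp1. Of all loci 35.1% were lower and 31.3% higher in shm1, 29.1% and 27% in glyk1, and 34.5% and 26.1% in pglp1. HEMF1, coproporphyrinogen oxidase, stood at 157, 274 and 262 CPM in wild-type LC, 36.6 and 25.9 in shm1, 45.0 and 58.8 in glyk1 and 53.5 and 66.1 in pglp1 LC. The 6 mutant libraries all lay below the wild type, with log2 fold changes of −2.88 (SE 0.29, adjusted p = 9.97e-07), −2.15 (SE 0.28, adjusted p = 1.52e-05) and −1.95 (SE 0.28, adjusted p = 2.39e-05). HEMC, porphobilinogen deaminase, was at 144, 435 and 296 CPM in wild-type LC and 29.9 and 37.2 in pglp1 LC (−3.12, SE 0.46, adjusted p = 2.92e-05). In shm1 it fell by 3.28 (SE 0.46, adjusted p = 1.7e-05) and in glyk1 by 1.95 (SE 0.43, adjusted p = 0.00128). HEME2, uroporphyrinogen decarboxylase, fell by 4.07 (SE 0.56, adjusted p = 1.37e-05), 2.89 (SE 0.52, adjusted p = 0.000277) and 3.04 (SE 0.53, adjusted p = 0.000149), from 70.2, 254 and 183 CPM in the wild type to 21.1 and 24.5 in glyk1 LC.

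HEME1, the other decarboxylase gene, was not called in pglp1, where it stood at 122 and 100.1 CPM between the 2 wild-type LC values of 40.1 and 215. It fell in shm1 (−3.03, SE 0.67, adjusted p = 0.00112, and 0.0557 with only 2 groups fitted). HEME1 also fell in glyk1 (−1.92, SE 0.64, adjusted p = 0.0201), a call lost without wild-type LC replicate 2, glyk1 LC replicate 1 or glyk1 LC replicate 2. The log2 fold changes in those fits were −0.25, −1.94 and −1.80. HEMB1, ALA dehydratase, was higher in glyk1 at 169 and 136 CPM and in pglp1 at 182 and 152, against 53.5, 143 and 72.9 in wild-type LC. In HC it lay between 88.6 and 178 CPM. The log2 fold changes were 0.77 (SE 0.31, adjusted p = 0.0476) and 0.90 (SE 0.31, adjusted p = 0.0212). Both calls were lost without wild-type LC replicate 1 (adjusted p = 0.151 and 0.0728), and that of glyk1 also without wild-type LC replicate 3 (0.0843), glyk1 LC replicate 1 (0.156) or 2 (0.068). HEMD, uroporphyrinogen III synthase, fell in shm1 (−1.43, SE 0.37, adjusted p = 0.00316; 0.0702 with shm1 LC replicate 2 left out).

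Protoporphyrinogen oxidase, the last common step, moved in opposite directions between its genes in shm1. PPOX1 stood at 83.9, 177 and 132 CPM in wild-type LC and 35.0 and 27.1 in shm1 LC (−2.07, SE 0.30, adjusted p = 2.15e-05), while PPOX2 stood at 18.6, 24.5 and 13.2 and 41.0 and 41.2 (1.13, SE 0.23, adjusted p = 0.000535). In RPKM the ratio of PPOX2 to PPOX1 was 1.11 and 1.44 in shm1 LC and at most 0.432 in the other 20 libraries. PPOX1 fell in pglp1 as well (−1.99, SE 0.30, adjusted p = 3.6e-05), where PPOX2 was −0.47 (SE 0.25, adjusted p = 0.11).

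In the magnesium branch all 14 genes fell in shm1 and 12 of 14 in glyk1, whereas in pglp1 6 fell, 1 rose and 7 were not called. Of all loci 35.1% were lower in shm1, 29.1% in glyk1 and 34.5% in pglp1, where 26.1% were higher. The pglp1 count of lower genes lay near that share, and the count of higher genes below it. PORB, the most abundant protochlorophyllide oxidoreductase gene, stood at 590.4, 2362 and 1844 CPM in wild-type LC and between 1082 and 2941 CPM in HC. It was 56.0 and 7.04 in shm1, 55.9 and 126 in glyk1 and 43.9 and 41.9 in pglp1 LC, below every other library. The log2 fold changes were −5.66 (SE 0.87, adjusted p = 3.98e-05), −4.14 (SE 0.80, adjusted p = 0.00049) and −5.22 (SE 0.85, adjusted p = 7.97e-05). PORC fell in all 3, with log2 fold changes of −5.26 (SE 0.80, adjusted p = 3.91e-05) in shm1, −2.37 (SE 0.69, adjusted p = 0.00852) in glyk1 and −2.30 (SE 0.69, adjusted p = 0.00891) in pglp1. The call of PORC was lost without glyk1 LC replicate 1 (adjusted p = 0.0774) in glyk1, and without pglp1 LC replicate 1 (0.0682) or 2 (0.0741) in pglp1. PORA, the form of dark-grown seedlings, was low throughout, at 0.223, 13.1 and 13.1 CPM in wild-type LC and 0.831 and 0.0518 in shm1 LC (−4.15, SE 1.33, adjusted p = 0.0122). Its calls in shm1 and glyk1 (−4.32, SE 1.38, adjusted p = 0.0152) were lost without shm1 LC replicate 2 (adjusted p = 0.105) and without glyk1 LC replicate 1 (0.106) or 2 (0.0806).

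CHLH, the porphyrin-binding subunit of magnesium chelatase, was called in opposite directions in shm1 and pglp1. Its level was 319, 1453 and 1751 CPM in wild-type LC, 281 and 166 in shm1, 794 and 659 in glyk1 and 3402 and 3118 in pglp1 LC, and between 811 and 2238 CPM in HC. Both shm1 LC libraries were below all wild-type libraries and both pglp1 LC libraries above every other library. Log2 fold changes were −2.39 (SE 0.57, adjusted p = 0.00177) in shm1, −0.69 (SE 0.53, adjusted p = 0.278) in glyk1 and 1.47 (SE 0.51, adjusted p = 0.0213) in pglp1, and pglp1 exceeded shm1 by 3.87 (SE 0.64, adjusted p = 0.000118). With only 2 groups fitted the adjusted p was 0.0647 in shm1 and 0.126 in pglp1. Against its own HC libraries CHLH in pglp1 was 1.31 (SE 0.58, adjusted p = 0.0654).

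The other subunits of the chelatase did not follow CHLH in pglp1. CHLI2, a copy of the ATPase subunit, stood at 34.8, 116 and 107 CPM in wild-type LC, 3.52 and 0.690 in shm1, 14.6 and 19.3 in glyk1 and 5.89 and 6.04 in pglp1 LC (−3.84, SE 0.67, adjusted p = 0.000149 in pglp1). CHLI1, the main copy, fell by 4.64 (SE 0.67, adjusted p = 2.46e-05), 2.52 (SE 0.60, adjusted p = 0.00241) and 2.11 (SE 0.59, adjusted p = 0.00591), the last with adjusted p = 0.0618 without pglp1 LC replicate 2. The CHLI2 call in glyk1 (−2.34, SE 0.60, adjusted p = 0.00407) had adjusted p = 0.0533 without glyk1 LC replicate 1. CHLD was 106, 318 and 242 CPM in wild-type LC and 26.1 and 14.9 in shm1 (−3.43, SE 0.41, adjusted p = 4.32e-06). It was 86.4 and 79.5 in glyk1 (−1.42, SE 0.37, adjusted p = 0.0045, and 0.0696 with only 2 groups fitted). In pglp1 it was 157 and 124 (−0.66, SE 0.36, adjusted p = 0.127). GUN4, which activates the chelatase, was called lower in all 3, at 37.6 and 138 CPM in wild-type LC and 20.1 and 26.2 in pglp1 LC. It is uncertain, since 73.0% of its exon bases overlap AT3G59410 on the opposite strand and the kit does not mark strand. Its calls were also lost without wild-type LC replicate 2 (adjusted p = 0.228 in shm1, 0.137 in glyk1 and 0.4 in pglp1), shm1 LC replicate 2 (0.0848), glyk1 LC replicate 1 (0.0617), or pglp1 LC replicate 1 (0.16) or 2 (0.0859).

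CHLG and CRD1, of the later steps, stood higher in pglp1 than in glyk1. CHLG, chlorophyll synthase, was at 94.1 and 200.4 CPM in wild-type LC, 12.2 and 3.75 in shm1, 19.1 and 21.3 in glyk1 and 249 and 205 in pglp1 LC. The shm1 and glyk1 libraries were below all others and the pglp1 libraries at or above the wild type. Log2 fold changes were −4.20 (SE 0.50, adjusted p = 5.82e-06), −2.87 (SE 0.47, adjusted p = 0.000157) and 0.63 (SE 0.44, adjusted p = 0.233), and pglp1 exceeded glyk1 by 3.49 (SE 0.48, adjusted p = 6.45e-05). CRD1 was at 443 and 1629 CPM in wild-type LC, 175 and 82.0 in shm1, 419 and 449 in glyk1 and 1821 and 1711 in pglp1 LC, and was called in shm1 (−3.01, SE 0.55, adjusted p = 0.000233) but not in glyk1 (−1.26, SE 0.52, adjusted p = 0.0506) or pglp1 (0.77, SE 0.51, adjusted p = 0.206). The pglp1 level of CRD1 exceeded that of glyk1 by 2.02 (SE 0.53, adjusted p = 0.00641).

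CHLM, the methyltransferase before the cyclase, and CHLP, which reduces the phytol chain, were called in shm1 and glyk1. CHLM was −3.54 (SE 0.52, adjusted p = 2.71e-05) in shm1, −2.32 (SE 0.49, adjusted p = 0.000959) in glyk1 and 0.01 (SE 0.45, adjusted p = 0.985) in pglp1. CHLP was −3.53 (SE 0.59, adjusted p = 9.26e-05), −1.72 (SE 0.54, adjusted p = 0.0138) and 0.30 (SE 0.50, adjusted p = 0.626). Its glyk1 call was lost without glyk1 LC replicate 1 (adjusted p = 0.101) or 2 (0.059). DVR, the divinyl reductase, by contrast fell in all 3, to 2.50 and 0.380 CPM in shm1 and 19.1 and 25.9 in pglp1 from 25.9, 139 and 139 in wild-type LC (−2.17, SE 0.74, adjusted p = 0.0192 in pglp1). That pglp1 call was lost without wild-type LC replicate 2 (adjusted p = 0.0516) or 3 (0.0554) and without pglp1 LC replicate 1 (0.148) or 2 (0.0804).

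CAO makes chlorophyll b. It was 70.0, 178 and 108 CPM in wild-type LC, 67.3 and 37.6 in shm1, 25.4 and 28.6 in glyk1 and 81.5 and 81.5 in pglp1 LC. The glyk1 libraries were the lowest of the series. Fold changes on the log2 scale were −1.18 (SE 0.31, adjusted p = 0.00369) in shm1 (adjusted p = 0.11 without shm1 LC replicate 2), −2.14 (SE 0.33, adjusted p = 6.64e-05) in glyk1 and −0.54 (SE 0.31, adjusted p = 0.137) in pglp1.

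**Figure D2:**
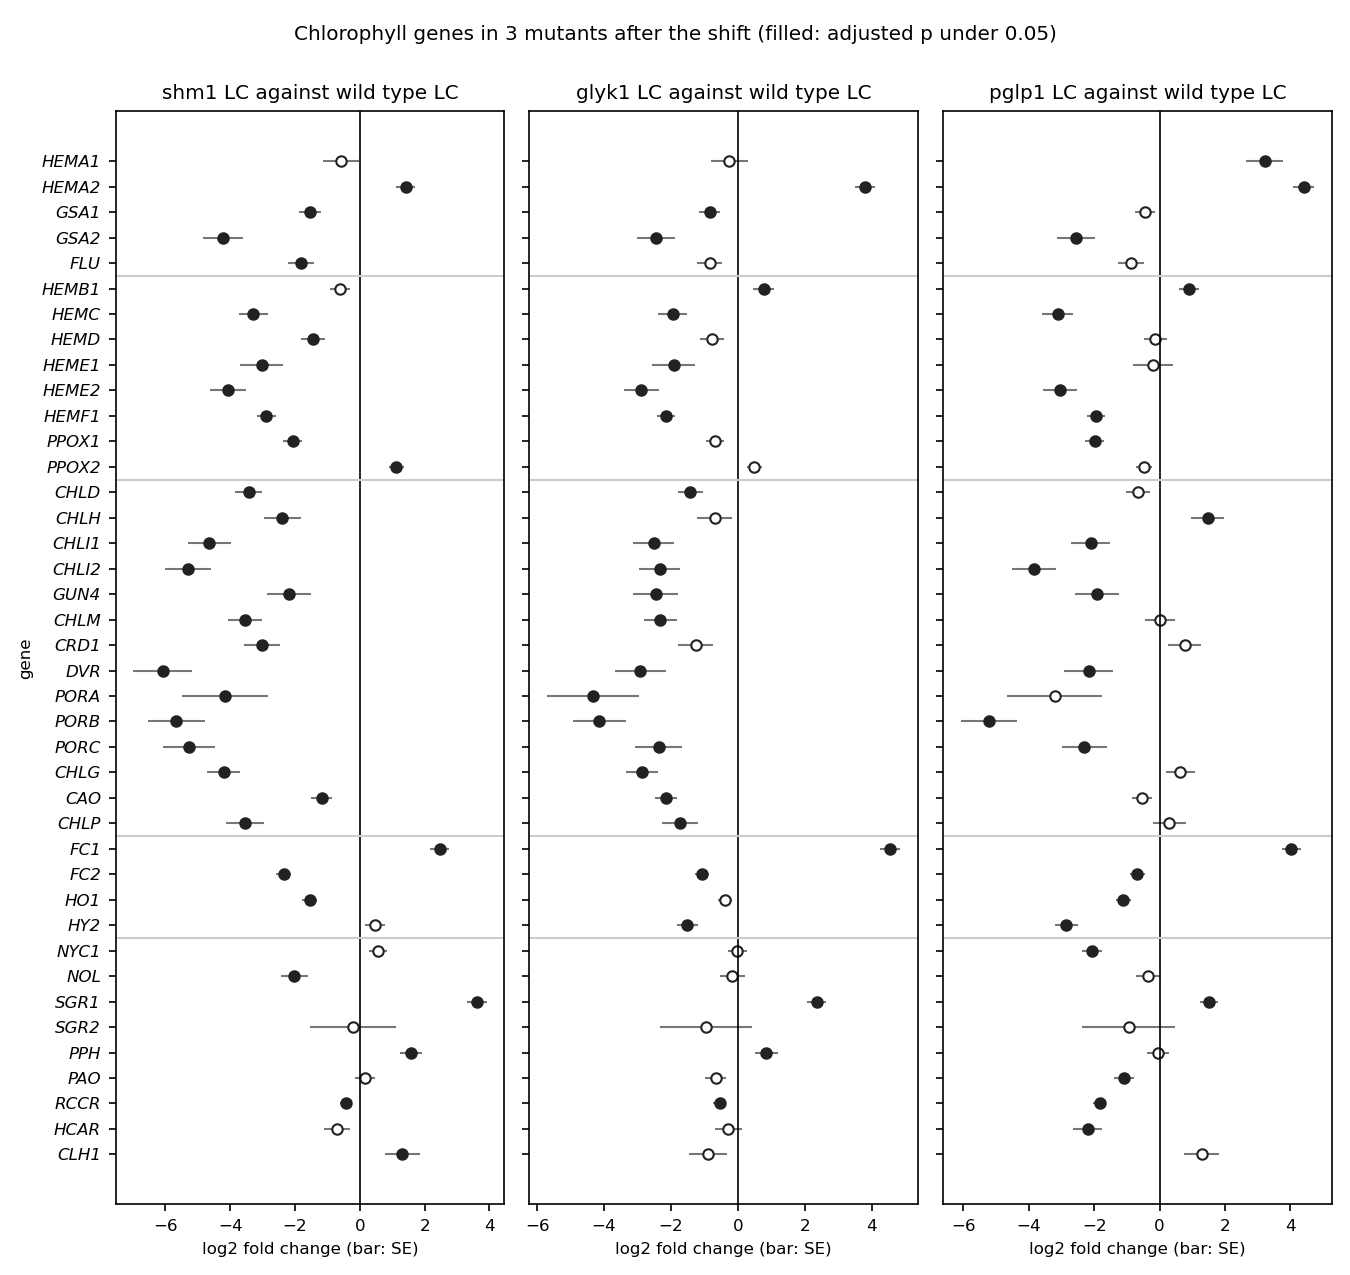
Log2 fold change in LC against wild-type LC of the 40 genes (rows, in the order of the pathway, grey lines between steps) in shm1, glyk1 and pglp1; bars are the SE and filled points have an adjusted p under 0.05. Points of the magnesium branch lie left of 0 throughout in shm1 and glyk1, while in pglp1 they spread from −5.22 for PORB to 1.47 for CHLH.

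Tests of mutant against mutant in LC gave the size of these differences. Against shm1, glyk1 had 18 genes higher and 5 lower (all loci 21.4% and 17.1%) and pglp1 had 20 higher and 8 lower (24.6% and 29.5%). Against glyk1, pglp1 had 9 higher and 9 lower (17.7% and 26.5%). The 9 higher were HEMA1, HEME1, CHLH, CHLM, CRD1, CHLG, CAO, CHLP and CLH1. The 9 lower were HEMC, PPOX1, PPOX2, HO1, HY2, NYC1, SGR1, RCCR and HCAR. The 18 calls became 11 without glyk1 LC replicate 2 and 13 without pglp1 LC replicate 1. Against hpr1, the numbers higher and lower were 4 and 25 in shm1 (26% and 29% of all loci), 3 and 14 in glyk1 (19.9% and 19.2%) and 5 and 17 in pglp1 (22.7% and 29.9%). The 17 glyk1 calls became 8 to 14 when 1 of the 4 libraries was left out, 8 without glyk1 LC replicate 1, 9 without hpr1 LC replicate 2 and 11 without glyk1 LC replicate 2. The 23 calls of glyk1 against shm1 became 13 without glyk1 LC replicate 2 and 14 without shm1 LC replicate 2.

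**Figure D3:**
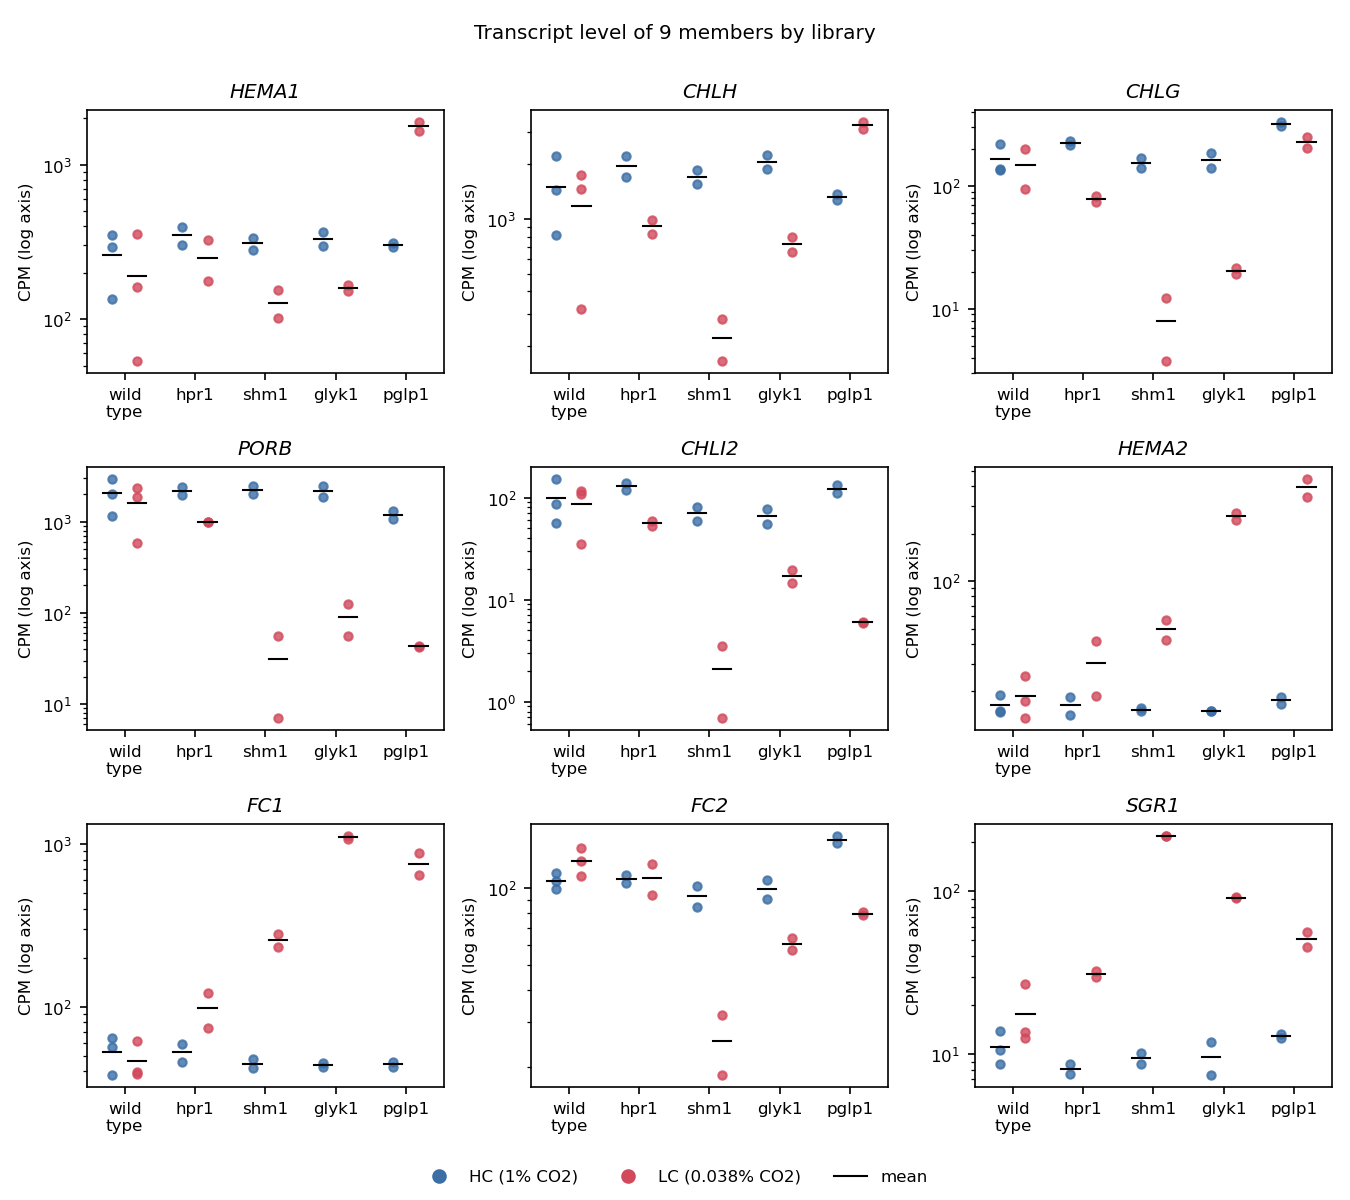
CPM of 9 genes (log axis) by genotype; blue points are HC libraries, red points LC libraries and black lines group means. In pglp1 LC, HEMA1 and CHLH lie above all other libraries and CHLG within the upper range, while PORB and CHLI2 lie far below the wild type. HEMA2, FC1 and SGR1 are higher in the LC libraries of shm1, glyk1 and pglp1, and FC2 is lower.

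In the heme branch FC1 rose and FC2 fell in all 3 mutants. FC1, the ferrochelatase expressed throughout the plant, lay between 38.0 and 64.0 CPM in HC and at 61.8, 39.4 and 38.5 in wild-type LC. It was 280.1 and 231 in shm1, 1080 and 1121 in glyk1 and 875 and 643 in pglp1 LC, all above every HC and wild-type library. Log2 fold changes were 2.46 (SE 0.28, adjusted p = 2.78e-06), 4.56 (SE 0.30, adjusted p = 3.68e-08) and 4.03 (SE 0.29, adjusted p = 4.09e-08). FC2, the ferrochelatase of green tissue, was 112, 127 and 144 CPM in wild-type LC, 31.8 and 18.5 in shm1, 57.3 and 63.9 in glyk1 and 78.4 and 80.6 in pglp1 LC. All 6 values were below the wild type, with log2 fold changes of −2.34 (SE 0.23, adjusted p = 8.31e-07), −1.07 (SE 0.22, adjusted p = 0.000729) and −0.68 (SE 0.22, adjusted p = 0.0126). The pglp1 call of FC2 was lost without wild-type LC replicate 3 (adjusted p = 0.0547) or pglp1 LC replicate 1 (0.16) or 2 (0.121).

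Set against each other per gene length, FC1 was at 0.264 to 0.529 of FC2 in RPKM over the 11 HC libraries and at 0.517, 0.289 and 0.250 in wild-type LC. The ratio was 1.21 and 0.551 in hpr1 LC, 8.22 and 11.7 in shm1, 17.5 and 16.4 in glyk1, and 10.4 and 7.45 in pglp1 LC. FC2 was the higher of the pair in every HC and wild-type library, and FC1 in the 6 libraries of these mutants. The ratio of HEMA2 to HEMA1 passed 1 only in glyk1 LC, at 1.46 and 1.75. In pglp1 LC, where both genes were high, it was 0.233 and 0.203. CHLH stood at 0.185 to 0.432 of PORB in every HC and wild-type library and at 26.6 and 25.5 times PORB in pglp1 LC. The longest transcripts of HEMA1 and HEMA2 have 0 windows of 50 bases in common, and so have those of FC1 and FC2.

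**Figure D4:**
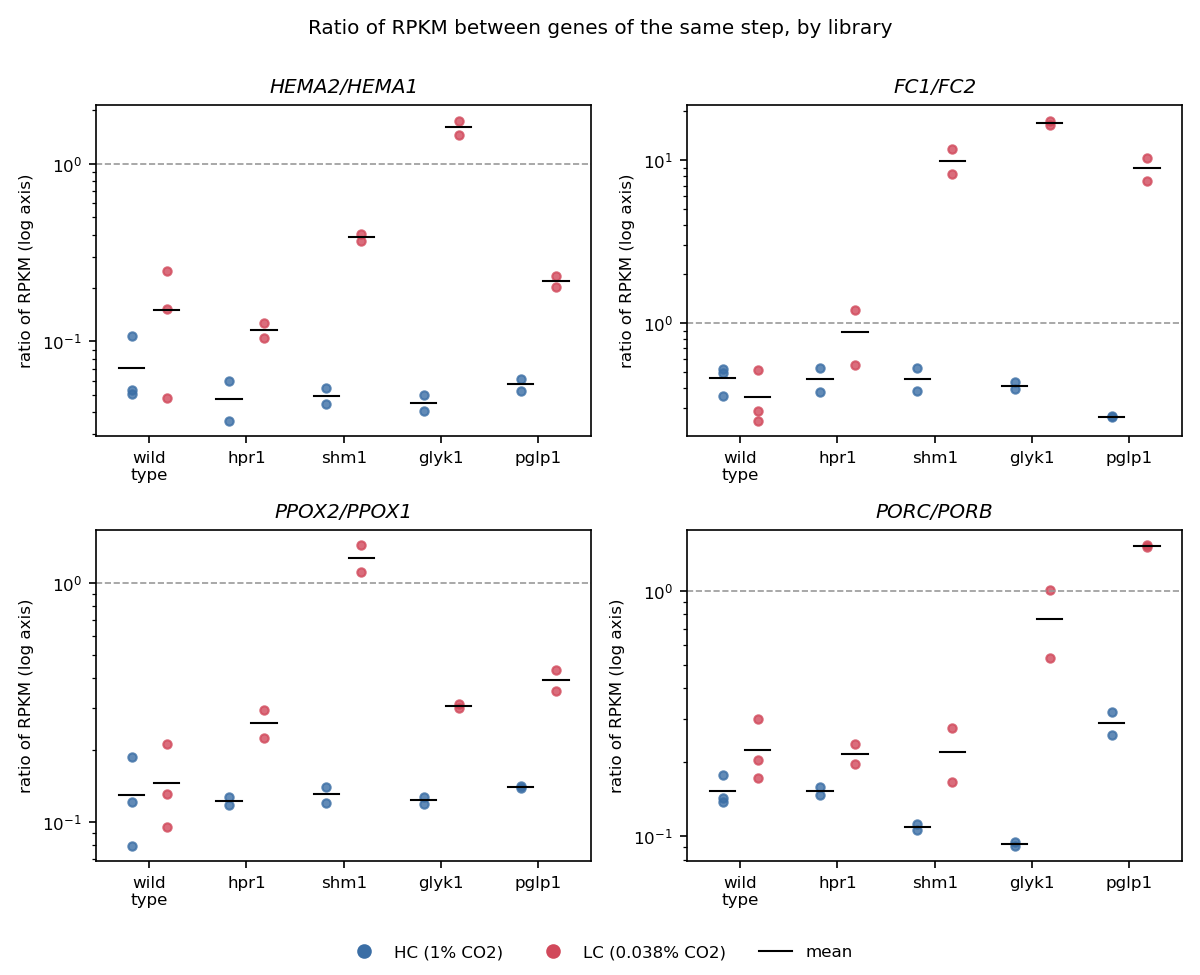
Ratio of RPKM (log axis) between genes of the same step by genotype; blue points are HC libraries, red points LC libraries, black lines means, and the dashed line marks equal RPKM. FC1 passes FC2 in shm1, glyk1 and pglp1 LC, HEMA2 passes HEMA1 in glyk1 LC, PPOX2 passes PPOX1 in shm1 LC, and PORC passes PORB in pglp1 LC and reaches it in 1 glyk1 LC library, at 1.00.

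HO1, the heme oxygenase that starts bilin synthesis, stood at 68.6, 105 and 114 CPM in wild-type LC, 39.0 and 26.9 in shm1, 67.5 and 80.0 in glyk1 and 45.8 and 43.1 in pglp1 LC. It was called lower in shm1 (−1.54, SE 0.23, adjusted p = 3.51e-05) and pglp1 (−1.11, SE 0.23, adjusted p = 0.000661), and glyk1 (−0.38, SE 0.22, adjusted p = 0.157) lay at the lower edge of the wild type. HY2, phytochromobilin synthase, was at 9.18 and 16.5 CPM in wild-type LC, 4.43 and 4.53 in glyk1 and 1.39 and 2.10 in pglp1 LC. It fell in both, with log2 fold changes of −1.51 (SE 0.31, adjusted p = 0.000938) and −2.85 (SE 0.36, adjusted p = 1.01e-05). In shm1 it was 17.0 and 18.3 CPM (0.47, SE 0.30, adjusted p = 0.182). The pglp1 libraries of HY2 were the lowest of the series.

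Breakdown genes did not move as a group: 3 rose and 2 fell in shm1, 2 rose and 1 fell in glyk1, and 1 rose and 4 fell in pglp1. Higher and lower over all loci were 31.3% and 35.1% in shm1, 27% and 29.1% in glyk1, and 26.1% and 34.5% in pglp1. SGR1 rose in all 3, and its levels were 27.1, 12.5 and 13.6 CPM in wild-type LC, 218 and 219 in shm1, 91.9 and 90.9 in glyk1 and 45.8 and 56.0 in pglp1 LC, and between 7.45 and 13.9 CPM in HC. The groups did not overlap, in the order shm1, glyk1, pglp1, wild type. Log2 fold changes were 3.61 (SE 0.30, adjusted p = 1.76e-07), 2.36 (SE 0.29, adjusted p = 8.66e-06) and 1.51 (SE 0.29, adjusted p = 0.000325). The difference between pglp1 and glyk1 was −0.84 (SE 0.32, adjusted p = 0.0428), and leaving out any 1 of their 4 libraries gave adjusted p = 0.11 to 0.325. SGR2 ranged from 22.5, 0.602 and 1.32 CPM in wild-type LC to 0.331 CPM in hpr1 HC and was called by edgeR in no comparison. In hpr1 it stood at 0.331 and 0.333 CPM in HC and 5.05 and 14.6 in LC (4.92, SE 1.83, adjusted p = 0.0778), where DESeq2 called it higher and the authors' deposited table has it at a q-value under 0.05.

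PPH stood at 152, 69.3 and 92.5 CPM in wild-type LC, 306 and 314 in shm1, 189 and 189 in glyk1 and 79.7 and 123 in pglp1 LC. It rose in shm1 (1.57, SE 0.34, adjusted p = 0.000883) and glyk1 (0.85, SE 0.34, adjusted p = 0.0455), and pglp1 lay inside the wild-type range (−0.05, SE 0.35, adjusted p = 0.915). The glyk1 call was lost without wild-type LC replicate 2 (adjusted p = 0.156) or 3 (0.0797) and without glyk1 LC replicate 1 (0.134) or 2 (0.123). CLH1, chlorophyllase, varied between wild-type HC libraries from 156 to 752 CPM. It was 155, 127 and 229 in wild-type LC, 487 and 356 in shm1 and 389 and 447 in pglp1 LC. Against the wild type these were log2 fold changes of 1.31 (SE 0.54, adjusted p = 0.0446) and 1.29 (SE 0.54, adjusted p = 0.0505). The shm1 call was lost without wild-type LC replicate 1 (adjusted p = 0.0929) or 2 (0.124) and without shm1 LC replicate 1 (0.19) or 2 (0.0519). In glyk1 LC it was 119 and 65.3 (−0.89, SE 0.57, adjusted p = 0.193).

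In pglp1 NYC1 and HCAR, which act in turning chlorophyll b back to a, and PAO and RCCR of ring opening fell. NYC1 was 252, 219 and 256 CPM in wild-type LC, 447 and 275 in shm1, 234 and 247 in glyk1 and 37.3 and 79.2 in pglp1 LC, where both libraries were below all others (−2.06, SE 0.30, adjusted p = 2.9e-05). HCAR, hydroxymethyl chlorophyll a reductase, was 59.5, 58.8 and 20.1 in wild-type LC and 9.47 and 10.7 in pglp1 LC (−2.20, SE 0.44, adjusted p = 0.000518), with 31.2 and 25.6 in shm1 and 34.7 and 40.9 in glyk1 inside the wild-type range. RCCR, red chlorophyll catabolite reductase, was 62.5, 76.9 and 93.1 CPM in wild-type LC and 21.2 and 22.4 in pglp1 LC (−1.83, SE 0.20, adjusted p = 1.57e-06). Its smaller falls in shm1 (−0.44, SE 0.18, adjusted p = 0.0477) and glyk1 (−0.54, SE 0.19, adjusted p = 0.0221) were lost without wild-type LC replicate 3 (adjusted p = 0.405 and 0.165), and in shm1 also without wild-type LC replicate 2 (0.0739) or shm1 LC replicate 2 (0.663), in glyk1 without glyk1 LC replicate 1 (0.219).

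PAO, the oxygenase that opens the ring, stood at 121 and 68.2 CPM in wild-type LC and 30.9 and 57.8 in pglp1 LC (−1.09, SE 0.31, adjusted p = 0.00734), a call lost without wild-type LC replicate 1 (adjusted p = 0.12) or pglp1 LC replicate 1 (0.237). In shm1 it was 112 and 101 and in glyk1 54.3 and 65.4 CPM, with log2 fold changes of 0.17 (SE 0.31, adjusted p = 0.632) and −0.66 (SE 0.31, adjusted p = 0.0808). NOL, the partner of NYC1, fell in shm1, from 15.2, 26.9 and 10.8 CPM in wild-type LC to 6.20 and 2.38 (−2.02, SE 0.41, adjusted p = 0.000444). It was 14.4 and 17.1 in glyk1 and 13.6 and 14.2 in pglp1 LC, inside the wild-type range. Between mutants, NOL was higher in pglp1 than in shm1 by 1.69 (SE 0.43, adjusted p = 0.00375), and NYC1 was lower in pglp1 than in shm1 (−2.63, SE 0.32, adjusted p = 8.43e-06).

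Of 22 other genes of tetrapyrrole and phytol metabolism, 21 were tested. In shm1 6 were higher and 12 lower, in glyk1 3 and 11, and in pglp1 4 and 8, with medians of −1.30, −1.09 and −0.61. Over all loci 31.3% and 35.1% were higher and lower in shm1, 27% and 29.1% in glyk1, and 26.1% and 34.5% in pglp1, and the pglp1 counts lay near these shares. MES16, which demethylates chlorophyll catabolites, rose in all 3, by 3.42 (SE 0.35, adjusted p = 1.11e-06), 1.20 (SE 0.34, adjusted p = 0.0076) and 3.19 (SE 0.35, adjusted p = 1.79e-06). UPM1 rose in shm1 (2.25, SE 0.36, adjusted p = 5.86e-05) and pglp1 (1.21, SE 0.36, adjusted p = 0.00826) and was not called in glyk1. PES1 rose in shm1 alone, PES2 in shm1 and glyk1. SIRB rose in glyk1 and fell in pglp1. SGRL fell in shm1 and glyk1 and was not called in pglp1. LCAA, another subunit of the ring cyclase, fell in all 3, with log2 fold changes of −4.26 (SE 0.49, adjusted p = 3.09e-06), −2.03 (SE 0.44, adjusted p = 0.00113) and −1.95 (SE 0.44, adjusted p = 0.00124). LIL3.1, which anchors the phytol-chain reductase, fell in all 3 as well, with −4.04 (SE 0.51, adjusted p = 7.45e-06), −2.82 (SE 0.48, adjusted p = 0.000175) and −1.90 (SE 0.46, adjusted p = 0.00228). LIL3.2 fell in shm1 (−2.72, SE 0.33, adjusted p = 4.15e-06) and glyk1 (−1.13, SE 0.30, adjusted p = 0.00513) and rose in pglp1 (0.99, SE 0.29, adjusted p = 0.00743). The 3 falls of lowest adjusted p in pglp1 were those of VTE6, TIC55 and GBP. VTE6, a phytyl-phosphate kinase, fell in pglp1 (−2.28, SE 0.24, adjusted p = 1.11e-06) and shm1 (−1.30, SE 0.22, adjusted p = 0.000109) and was not called in glyk1 (−0.40, SE 0.22, adjusted p = 0.125). TIC55, which hydroxylates chlorophyll catabolites, fell in pglp1 (−2.19, SE 0.25, adjusted p = 2.57e-06) and glyk1 (−1.09, SE 0.23, adjusted p = 0.00114) and was not called in shm1 (−0.31, SE 0.23, adjusted p = 0.238). GBP, which binds glutamyl-tRNA reductase, fell in pglp1 (−2.72, SE 0.40, adjusted p = 3.91e-05), shm1 (−1.50, SE 0.37, adjusted p = 0.00246) and glyk1 (−1.27, SE 0.37, adjusted p = 0.00934).

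Among 20 regulators of the pathway, 10 were higher and 7 lower in shm1, 6 and 7 in glyk1, and 5 and 5 in pglp1, with medians of 0.78, −0.03 and 0.21. Set against the same shares of all loci, the counts in glyk1 lay near them and those in pglp1 at or below them. GLK1, an activator of photosynthesis genes, stood at 228, 225 and 247 CPM in wild-type LC, 51.9 and 46.8 in shm1, 65.0 and 63.9 in glyk1, and 69.8 and 73.7 in pglp1 LC, below every other library. Its log2 fold changes were −2.24 (SE 0.19, adjusted p = 2.69e-07), −1.85 (SE 0.19, adjusted p = 1.58e-06) and −1.70 (SE 0.19, adjusted p = 2.19e-06). HY5, a light-signalling factor, stood at 7.87, 2.94 and 4.38 CPM in wild-type LC and 115 and 98.6 in pglp1 LC (4.38, SE 0.35, adjusted p = 8.4e-08). In shm1 it was 27.5 and 32.5 (2.54, SE 0.33, adjusted p = 8.29e-06) and in glyk1 14.7 and 18.5 (1.69, SE 0.32, adjusted p = 0.000463). PIF4 fell in shm1 (−3.77, SE 0.49, adjusted p = 9.23e-06) and glyk1 (−2.68, SE 0.46, adjusted p = 0.000195) and was not called in pglp1 (−0.42, SE 0.42, adjusted p = 0.401). PIF1, a repressor of chlorophyll synthesis in the dark, fell in shm1 (−1.50, SE 0.37, adjusted p = 0.00201), glyk1 (adjusted p = 0.0269) and pglp1 (−2.70, SE 0.41, adjusted p = 4.19e-05). GUN1, a plastid protein of signalling to the nucleus, fell in pglp1 (−1.55, SE 0.28, adjusted p = 0.000235) and was not called in shm1 (0.14, SE 0.27, adjusted p = 0.654) or glyk1 (−0.41, SE 0.27, adjusted p = 0.205). FHY3, which acts in phytochrome signalling, rose in shm1 (1.32, SE 0.16, adjusted p = 5.67e-06) and glyk1 (0.87, SE 0.15, adjusted p = 0.000294) and was not called in pglp1 (0.07, SE 0.15, adjusted p = 0.731). ABF4 rose in shm1 (1.76) and pglp1 (1.49) and was not called in glyk1. ABF3 rose in pglp1 (1.81) and fell in shm1 (−0.99) and glyk1 (−2.27). EIN3 rose and GLK2 fell in each of these mutants, and GNC fell in glyk1 and pglp1.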

How the data were processed

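Per the labels, polyadenylated leaf RNA was sequenced as single reads or as read pairs; the mode of each library is unknown. The submitters' processing notes name CASAVA 1.8, TAIR9, TAIR10 and edgeR, with no roles. An aligner is not given in these sources. The deposited table holds, per the file headers, counts and RPKM for each locus in each library, and the authors' p-value and q-value per comparison.

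Groups come from the sample titles. Counts were tested with edgeR 4.0.16 in R 4.3.3 (TMM, filterByExpr, 10 group means, robust quasi-likelihood F test, threshold 0.05). Loci displaced in wild-type LC replicate 3 were found by correlating windows of 21 loci with other libraries at shifts of up to 10 rows, and were fitted without that library. RPKM values served only for ratios and levels between genes. SE is from the F statistic. The labels call replicates biological and say nothing of plants or pools, so p-values measure the spread between libraries. Deviations of same-numbered replicates had no common direction over 45 pairs of groups (median r = −0.0591, from −0.55 to 0.434, 10 above 0.1). Numbers were not used as pairs in the main fit, and a batch shared by only some groups was not tested.

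Genes given in full are 23 chosen by role, and in each mutant against the wild type in LC the 5 called genes of lowest adjusted p in each direction. Of the other tetrapyrrole genes and regulators, the 3 called genes of lowest adjusted p per direction are named, some by direction alone. Members and lists were chosen with earlier results of these data known. Alternatives were DESeq2 1.42.0, its size factors, no filter, 2-group fits, rows as deposited, a replicate block and leaving out single libraries. The test was tested on simulated data. Sequences are RefSeq's, TAIR10.1, which carries TAIR10 coordinates.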

Additional observations from a re-analysis of the deposited data

Results flagged for a closer look

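For some genes of the pathway the response to the shift from HC to LC differed between a mutant and the wild type, tested as an interaction in edgeR. This was so for 31 genes in shm1, 15 in glyk1 and 24 in pglp1 of 40, while over all loci 53.9%, 39.3% and 43.6% were called, so the glyk1 count is near the share of all loci. FC1, HEMA2 and SGR1 were higher in each of these tests, which share the wild-type libraries, and PPOX2 was higher in shm1 and lower in pglp1.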

How the results depend on the processing

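Over 23 comparisons the number of called genes of the pathway stayed within 1.5 times of its value under the alternatives run, except as follows, and no gene named in the text reversed. For hpr1 in LC against HC, 8 genes were called, against 14 with DESeq2, 17 with only the 2 groups fitted, 2 with all rows as deposited, and 0 to 2 with 1 library left out. DESeq2 called 2 genes for pglp1 against the wild type in HC and 1 for hpr1 against the wild type in LC, where edgeR called 0 each. With single libraries left out these became 0 to 1 and 0 to 2, and the hpr1 interaction 0 to 1. The glyk1 interaction gave 8 to 26, glyk1 against the wild type in LC 16 to 31, against hpr1 8 to 14 and against shm1 13 to 25, and pglp1 against glyk1 11 to 13. With the replicate number as a block the counts in LC against the wild type were 32 in shm1, 24 in glyk1 and 25 in pglp1, and no count left its range of 1.5 times. The correlations of same-numbered deviations ran from −0.55 to 0.434. Of single called genes, 348 calls were lost over all fits that left out 1 library, 25 with rows as deposited and 23 with 2 groups fitted; the cause was not tested. Scaling by DESeq2's size factors lost 5 calls and no filter lost 6. PORA and SGR2 were each under 1 CPM in several libraries, and their replicates lay far apart. In wild-type LC PORA was at 0.223, 13.1 and 13.1 CPM and SGR2 at 22.5, 0.602 and 1.32.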

Other observations

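In the authors' deposited table, 25 of the 40 genes have a q-value under 0.05 for LC against HC in shm1, 22 in glyk1, 24 in pglp1, 3 in hpr1 (DVR, SGR1 and SGR2) and 0 in the wild type. Over all loci the shares in the authors' deposited table are 27.1%, 22%, 25.3%, 2.83% and 0.0273%. Against the wild type in LC, the authors' deposited table has FC1 in glyk1 and HEMA2 in pglp1 under that value, and 0 genes in shm1 and hpr1. Its shares of all loci are 1.79% in glyk1, 2.19% in pglp1, 2.1% in shm1 and 0.0117% in hpr1. The edgeR fit used above called 56.1%, 60.6%, 66.4% and 2.82% of tested loci in the same comparisons.

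Summed over the 14 genes of the magnesium branch, transcript levels were 2694 and 9226 CPM in wild-type LC replicates 1 and 2; replicate 3 lacks displaced members and has no sum. The sum was 895 and 376 CPM in shm1 LC, 1941 and 1988 in glyk1 LC, and 7820 and 7086 in pglp1 LC. Most of the pglp1 sum was CHLH (3402 and 3118), CRD1 (1821 and 1711) and CHLP (1578 and 1389), while PORB was at 43.9 and 41.9. The 4 genes of the heme and bilin branch summed to 251 and 288 CPM in those wild-type libraries, 368 and 295 in shm1, 1209 and 1269 in glyk1, and 1000 and 769 in pglp1 LC. Most of it in the mutants was FC1, at 280 and 231 in shm1, 1080 and 1121 in glyk1, and 875 and 643 in pglp1 LC. The 9 breakdown genes summed to 867 and 659 CPM in the same wild-type libraries, 1685 and 1345 in shm1 LC, 788 and 780.1 in glyk1 LC, and 628 and 817 in pglp1 LC. The porphyrin steps summed to 584 and 1571 CPM in the wild type, 253.5 and 208 in shm1, 469 and 461 in glyk1, and 495.5 and 445 in pglp1 LC. The ALA genes summed to 271 and 852 CPM in the wild type, 292 and 212 in shm1, 558 and 555 in glyk1, and 2500 and 2151 in pglp1 LC. HEMA1 made up most of the pglp1 sum, at 1886 and 1653.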
